A study of Arabidopsis thaliana with 21 samples.

Results

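The genes described here are 50 nuclear loci of Arabidopsis thaliana that encode the antenna proteins and subunits of the photosynthetic light reactions. They were chosen by locus identifier, from the LHCA, LHCB, PSA, PSB and PET families and the chloroplast ATP synthase, ferredoxin and ferredoxin-NADP reductase genes, and not by their values. The table of 25263 genes held 49 of the 50, and LHCB1.5 was not analysed here. The 49 fall into 6 classes: 6 genes of the photosystem I (PSI) antenna, 8 of the major photosystem II (PSII) antenna, 5 of the minor PSII antenna, 12 of the PSI core, 10 of the PSII core, and 8 of electron transport and ATP synthase.

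RNA was taken from whole untreated 10-day-old seedlings, grown on agar at 20 °C with 16 h of light and 8 h of dark. The 6 transgenic groups were At1++, At1+, At2++, At2+, At3++ and At3+, in which AtIPCS1, AtIPCS2 or AtIPCS3, the genes of inositol phosphorylceramide synthase, were over-expressed from the vector pK7WG2 in the Col-0 background. Each isoform had 2 lines, of which the one marked ++ was described as having more of the introduced transcript, and untransformed Col-0 was the control. Each group was 1 line with 3 libraries, and the study calls these technical triplicates, so that the p-values measure the spread between libraries and not between independent lines. The study asked which genes respond to over-expression of each isoform and whether they respond to its level.

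In the thylakoid membrane of the chloroplast, light-harvesting proteins bind chlorophyll and pass excitation energy to PSII and PSI. Electrons taken from water at PSII move through the cytochrome b6f complex and plastocyanin to PSI, and from there through ferredoxin to NADP, while ATP synthase uses the proton gradient that this builds. The reaction-centre proteins and a number of small subunits are encoded in the chloroplast genome. The antenna and other subunits are encoded in the nucleus, many of them by small gene families with nearly identical products.

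Between 12733113 and 17210244 reads per library were counted on genes. Replicates 1 and 2 labelled At3+ held identical values and were counted as 1 sample, which left n = 2 for At3+ and n = 3 for all other groups. The introduced transcript rose in every line, by 3.94 to 8.03 on the log2 scale, but AtIPCS2 averaged 12630.5 normalized counts in the libraries labelled At2++ and 22612 in those labelled At2+, and AtIPCS3 averaged 5802 in those labelled At3++ and 11933 in those labelled At3+. The difference between + and ++ passed the test for AtIPCS2 (limma adjusted p = 1.48e-08) and not for AtIPCS3 (0.0987). The order of the means was therefore against the labels for 2 of the 3 isoforms. The study's own table of detected genes per library also carries the opposite labels for both isoforms. Its fold changes of LHCA6 and ATPD were larger in At2+ than in At2++, the reverse of these libraries. They were larger in At3++ than in At3+, the same order as in these libraries. So + and ++ may be exchanged in the labels of these libraries, and for AtIPCS3 the study's tables disagree on this. The groups are named here by the labels of their libraries, and every direction between ++ and + follows the labels. As At2++, At2+, At3++ and At3+ are written here, each means the libraries labelled so. Values are normalized counts, which are reads divided by a size factor of the library. Fold changes are differences of log2(normalized count + 1), fitted for 22222 genes with limma, and a gene is said to have risen or fallen where the Benjamini-Hochberg adjusted p was under 0.05.

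Most of the light-reaction genes rose in 4 of the 6 lines, while LHCB2.1 and LHCB2.2 of the major PSII antenna fell in all 6. In At1++, 34 of the 49 rose and 6 fell, with a median log2 fold change of 0.43, where 19.8% of all genes tested rose and 19.0% fell. In At2++, 39 rose and 3 fell (median 0.70), against 25.8% and 26.2% of all genes. In At2+, 38 rose and 5 fell (median 0.55), against 22.6% and 21.5% of all genes. In At3++, 29 rose and 6 fell (median 0.41), against 20.4% and 18.1% of all genes. Fewer passed the test in the 2 other lines. In At1+, 3 rose and 9 fell (median -0.017), against 14.4% and 13.2% of all genes, and in At3+ 10 rose and 7 fell (median 0.029), against 4.94% and 4.37%. The counts in At3+ depended on single libraries, with 2 genes that rose without its replicate 1, 5 without its replicate 3, 4 without replicate 1 of Col-0 and 5 without replicate 3 of Col-0, and 4 that fell without its replicate 3. Without replicate 2 of At1+, 5 rose there, and without replicate 2 of At2++, 6 fell there. All 6 comparisons share the 3 Col-0 libraries.

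Of the 49 genes, 47 averaged at least 1000 normalized counts, and abundant genes passed the test more often. Among all 2970 genes that averaged at least 1000, 36.1% rose in At1++ and 29.3% in At1+, 47.9% in At2++ and 46.9% in At2+, and 42.0% in At3++ and 12.3% in At3+. The median log2 fold change of these abundant genes was 0.063 in At1++ and 0.077 in At1+, 0.14 in At2++ and 0.14 in At2+, and 0.12 in At3++ and 0.056 in At3+. The same 28 light-reaction genes rose in At1++, At2++, At2+ and At3++, of which 10 also rose in At3+ and 3 in At1+. For 40 of the 49, the highest of the 6 fold changes was in the libraries labelled At2++. The same share over all genes is not given here. At2++ was also the line in which most of all genes rose (25.8%), and its normalized total was the highest (117% of Col-0). LHCB2.1 and LHCB2.2 fell in all 6 lines, PSAH1 and PETC rose in all 6, LHCA1 and LHCB1.4 passed the test in none, and 4 genes (PSAD2, PSAG, PSAH2 and ATPD) rose in some lines and fell in others. In At3+, PSAH1 and PETC passed only narrowly (limma adjusted p = 0.0362 and 0.0387). The shares of all genes that rose or fell in several lines at once are not given here, and the lines share the Col-0 libraries. These overlaps are therefore a description only.

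**Figure D1:**
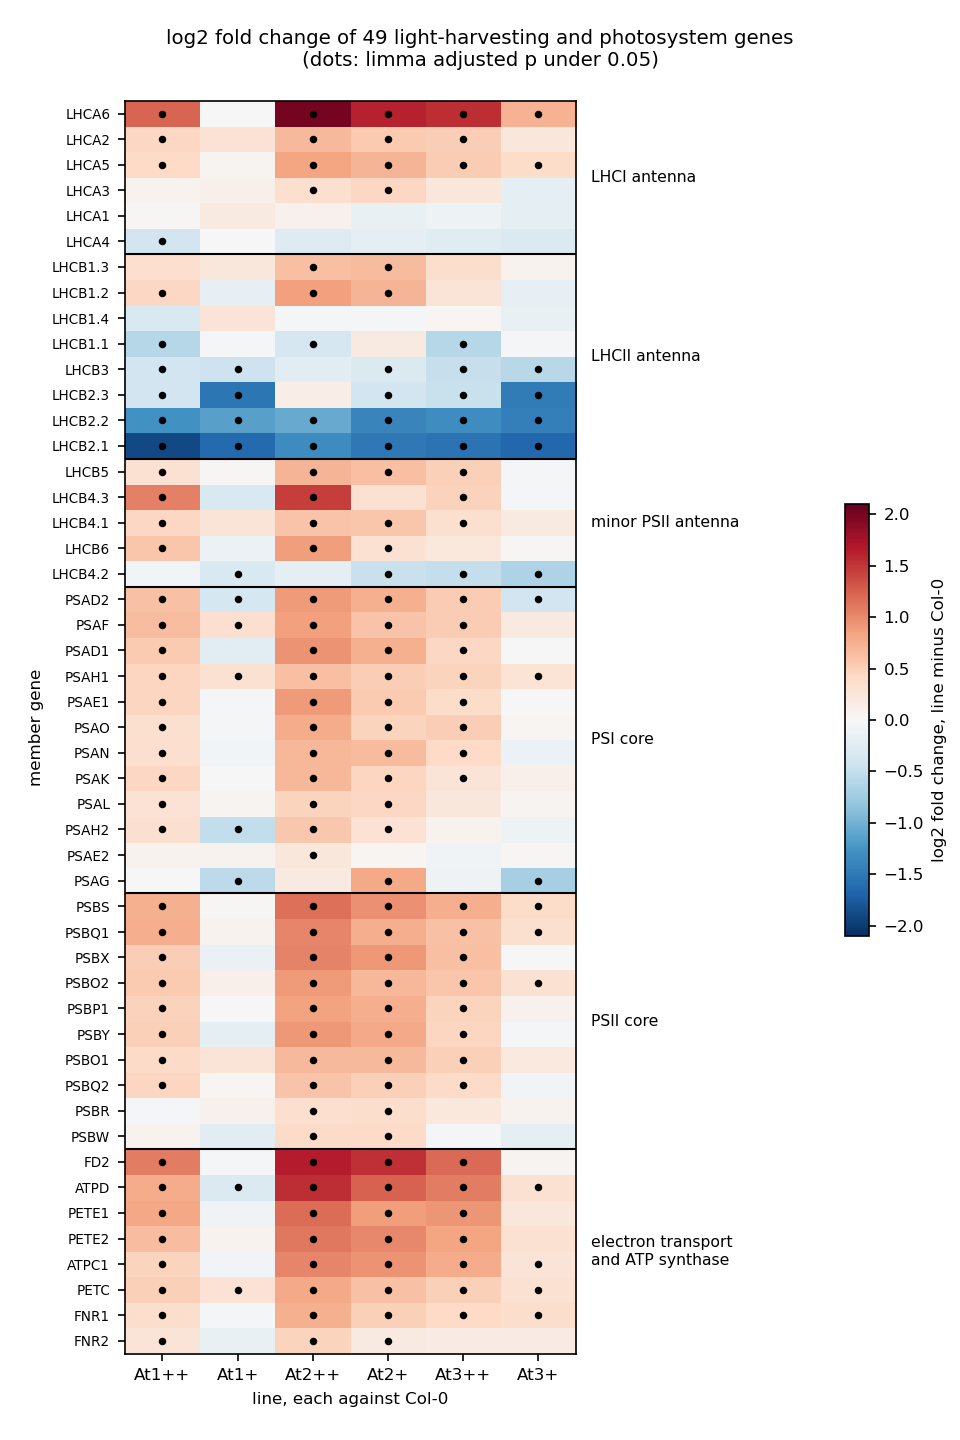
Each row is a light-reaction gene and each column a line, coloured by the log2 fold change of the line against Col-0, with a dot where limma's adjusted p was under 0.05. The columns of At1++, At2++, At2+ and At3++ are mostly red in the photosystem cores and electron transport, the columns of At1+ and At3+ are pale, and LHCB2.1 and LHCB2.2 are blue in all 6.

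Scaling mattered for the weaker changes. The normalized totals of the lines were 102 to 117% of the Col-0 total, and when each library was scaled to its nuclear total the median of all genes moved by -0.228 in At2++ and by -0.025 in At3+, the largest and smallest of these shifts on the log2 scale. Under that scaling 34 of the 49 rose and 7 fell in At1++, 4 and 15 in At1+, 36 and 6 in At2++, 34 and 7 in At2+, 25 and 10 in At3++, and 11 and 8 in At3+. The shares of all genes that rose and fell under that scaling are not given here, and the shares above do not apply to it. These counts therefore cannot be set against all genes. Together the 49 genes took 10.4 ± 0.748% of the normalized total in At1++ and 9.22 ± 0.483% in At1+, 11.8 ± 1.39% in At2++ and 11.3 ± 1.02% in At2+, and 10.3 ± 0.577% in At3++ and 9.1 ± 0.0356% in At3+, against 9.25 ± 0.335% in Col-0 (SD). The libraries of At1++, At2++, At2+ and At3++ all lay above those of Col-0 in this share (exact two-sided permutation p = 0.1 each, the smallest that 3 against 3 allow), and those of At1+ and At3+ overlapped them.

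The genes that fell in all 6 lines were LHCB2.1 (AT2G05100) and LHCB2.2 (AT2G05070), which lie 22517 bases apart on chromosome 2 and encode the LHCB2 protein of the mobile LHCII trimers. LHCB2 is a main target of the thylakoid kinase STN7, whose phosphorylation moves LHCII between the photosystems. Their coding sequences were 96.6% identical, and 3 of 994 stretches of 150 bases in the LHCB2.2 transcript occurred exactly in LHCB2.1, so that full-length reads without a mismatch were ambiguous only in that small part. Their promoters are printed because the pair fell together in every line. Each window is the 250 bases before the annotated start in the TAIR10.1 genome (RefSeq), read 5′ to 3′ on the minus strand, and capitals mark the longest run that both share, 20 bases long, which begins 86 bases before the LHCB2.1 start and 80 bases before the LHCB2.2 start. The LHCB2.1 window is chr2:1824481-1824730 and the LHCB2.2 window is chr2:1800473-1800722.
LHCB2.1: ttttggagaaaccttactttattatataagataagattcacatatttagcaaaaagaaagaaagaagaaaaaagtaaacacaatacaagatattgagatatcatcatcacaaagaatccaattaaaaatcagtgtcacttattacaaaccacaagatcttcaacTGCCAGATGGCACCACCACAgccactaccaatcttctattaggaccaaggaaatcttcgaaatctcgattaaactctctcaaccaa
LHCB2.2: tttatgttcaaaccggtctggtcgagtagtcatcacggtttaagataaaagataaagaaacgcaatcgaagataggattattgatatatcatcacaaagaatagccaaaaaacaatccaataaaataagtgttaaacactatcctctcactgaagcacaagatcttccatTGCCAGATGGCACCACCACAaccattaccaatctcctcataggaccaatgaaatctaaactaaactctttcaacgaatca

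LHCB2.1 had 1479.8, 1227 and 1591 in At1++, 1819, 1479.6 and 1857 in At1+, 1943, 2377 and 2049 in At2++, 2054, 1703 and 1873 in At2+, 1667, 1928 and 1848 in At3++ and 1742 and 1650.2 in At3+, against 4984, 5763 and 5197 in Col-0. The lowest Col-0 library was above every transgenic library. The log2 fold changes were -1.90 to -1.33 (standard error up to 0.11, limma adjusted p 5.7e-14 to 9.44e-11). LHCB2.2 had 1885, 1638 and 2126 in At1++, 2151, 1835 and 2234 in At1+, 1968, 2447 and 2145 in At2++, 1782, 1617 and 1799.8 in At2+, 1669, 1923 and 1926 in At3++ and 1769 and 1584 in At3+, against 4346, 4887 and 4387 in Col-0. Again no transgenic library reached the Col-0 range, and the log2 fold changes were -1.44 to -1.06 (standard error up to 0.10, limma adjusted p 1.17e-11 to 1.08e-09).

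LHCB2.3 (AT3G27690) on chromosome 3, the third gene for the same protein and 85.5% identical to LHCB2.1 in its coding sequence, differed between the lines. It had 806, 698 and 886 in At1++, 401, 327 and 369.7 in At1+, 1042, 1256 and 1157 in At2++, 803, 778 and 799 in At2+, 687, 777 and 819 in At3++ and 372 and 387 in At3+, against 1011, 1103 and 1027 in Col-0. At1+ and At3+ were lowest, and the At2++ libraries overlapped Col-0. Its log2 fold change was -1.52 in At1+ and -1.46 in At3+ (limma adjusted p = 1.37e-12 and 9.76e-11), -0.46 to -0.40 in At1++, At2+ and At3++, and 0.13 in At2++ (adjusted p = 0.211). Summed over the 3 LHCB2 genes, which does not depend on how reads were split among them, the normalized count was 4112 ± 522 in At1++ and 4158 ± 449 in At1+, 5462 ± 571 in At2++ and 4403 ± 278 in At2+, and 4414 ± 339 in At3++ and 3752 ± 185 in At3+, against 10902 ± 749 in Col-0 (SD). No line overlapped Col-0 in this sum (exact two-sided permutation p = 0.1 for the 5 lines with n = 3 and 0.2 for At3+, the smallest that each allows).

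LHCB3, the third kind of subunit of LHCII trimers, fell in 5 lines by log2 fold changes of -0.59 to -0.30 (limma adjusted p 0.00167 to 0.0333), and was -0.23 in At2++ (adjusted p = 0.0885). Its normalized count was 26802 ± 4086 in At1++ and 26158 ± 1995 in At1+, 30000 ± 3646 in At2++ and 28688 ± 4342 in At2+, and 25235 ± 1167 in At3++ and 23402 ± 1474 in At3+, against 35159 ± 1855 in Col-0 (SD).

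**Figure D2:**
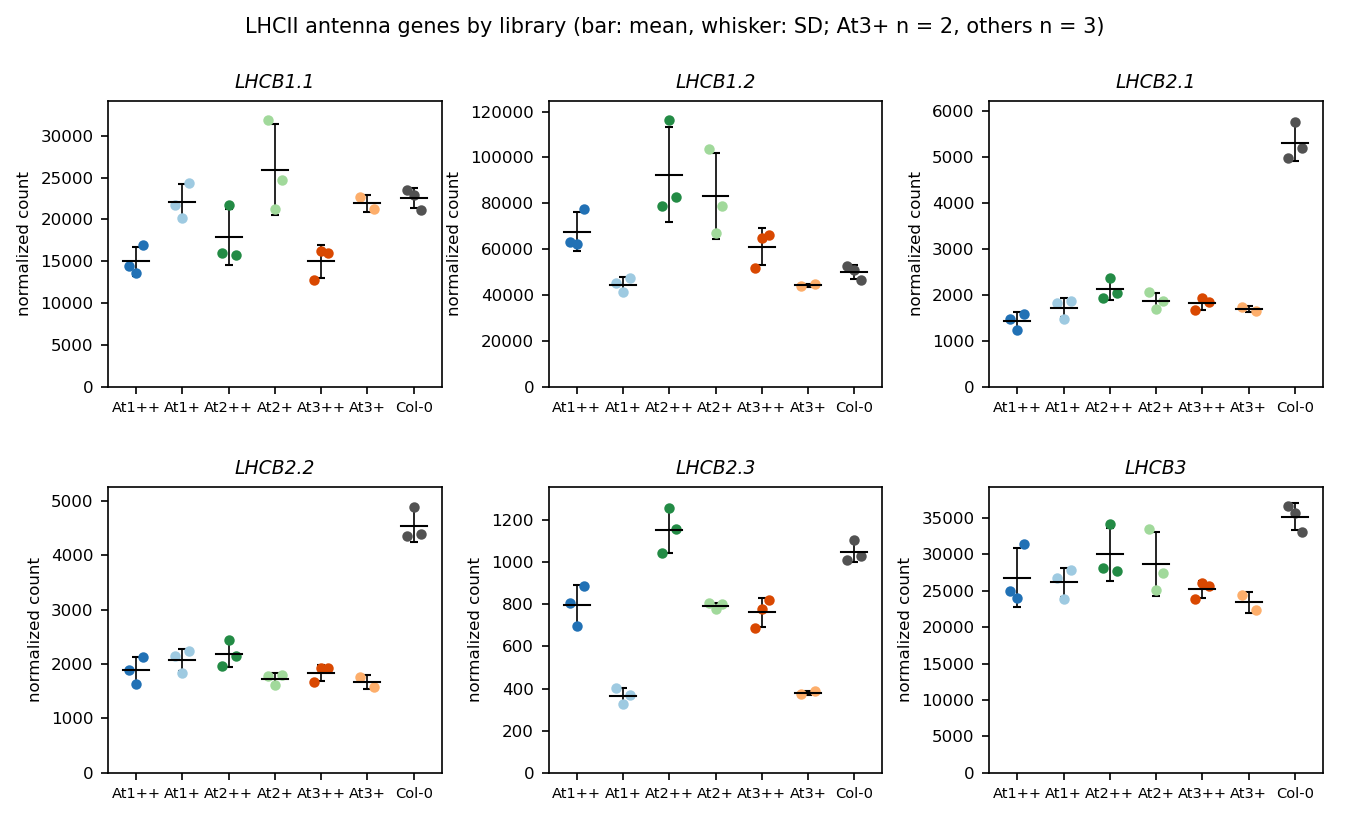
Points are libraries, bars are group means and whiskers are SD of the normalized count for 6 genes of the major PSII antenna. Col-0 stands above all lines for LHCB2.1 and LHCB2.2, and LHCB1.1 and LHCB1.2 differ between ++ and + in opposite directions within AtIPCS1.

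The LHCB1 genes encode the most abundant LHCII protein, and their copies did not move together. LHCB1.1, LHCB1.2 and LHCB1.3 stand side by side on chromosome 1 with coding sequences 95.6 to 96.4% identical. No stretch of 150 bases was shared exactly between their transcripts, but shorter trimmed reads or reads with a mismatch could be assigned to either copy, so that values of single copies carry this uncertainty. The promoters of LHCB1.1 and LHCB1.2 are printed because these neighbours changed in opposite directions in At1++ and At2++. Both windows are 250 bases of TAIR10.1 before the annotated start, on the minus strand, at chr1:10475970-10476219 for LHCB1.1 and chr1:10473503-10473752 for LHCB1.2. Capitals mark the letters AAAAATCT, a site of the clock protein CCA1, which were in the LHCB1.1 window and not in that of LHCB1.2. The same letters were in the windows of LHCB1.4, which passed the test in no line, and of LHCA4, PSAN and PSAO. The part of this site in the changes was not tested.
LHCB1.1: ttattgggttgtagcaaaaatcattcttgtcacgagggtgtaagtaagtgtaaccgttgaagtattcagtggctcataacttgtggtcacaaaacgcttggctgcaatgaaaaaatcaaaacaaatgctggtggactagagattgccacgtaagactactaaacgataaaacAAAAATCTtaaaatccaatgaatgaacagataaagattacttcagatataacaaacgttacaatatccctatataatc
LHCB1.2: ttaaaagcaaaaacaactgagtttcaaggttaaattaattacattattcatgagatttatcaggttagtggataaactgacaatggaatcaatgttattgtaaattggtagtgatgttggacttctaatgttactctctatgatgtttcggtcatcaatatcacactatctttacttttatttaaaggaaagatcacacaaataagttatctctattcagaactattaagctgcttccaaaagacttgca

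LHCB1.1 (AT1G29920) averaged 14965 ± 1754 normalized counts in At1++ and 22083 ± 2108 in At1+, 17838 ± 3350.4 in At2++ and 25934 ± 5434 in At2+, and 14998 ± 1988 in At3++ and 21928 ± 1004 in At3+, against 22523 ± 1222 in Col-0 (SD). It fell in At1++, At2++ and At3++ by log2 fold changes of -0.59 to -0.35 and passed the test in no line labelled +. LHCB1.2 (AT1G29910) averaged 67714 ± 8464 in At1++ and 44589 ± 3097 in At1+, 92507 ± 20598 in At2++ and 83161 ± 18651 in At2+, and 61014 ± 8011 in At3++ and 44279.9 ± 658 in At3+, against 50113 ± 3047 in Col-0 (SD). It rose in At1++, At2++ and At2+ by 0.43 to 0.86. The ratio of LHCB1.2 to LHCB1.1, which no scaling of libraries can change, was 4.52 ± 0.106 in At1++ and 2.02 ± 0.07 in At1+, 5.17 ± 0.229 in At2++ and 3.2 ± 0.0454 in At2+, and 4.07 ± 0.0782 in At3++ and 2.02 ± 0.123 in At3+, against 2.22 ± 0.0149 in Col-0 (SD). By label, the ++ libraries all lay above the + libraries of the same isoform and above Col-0, At2+ lay above Col-0, and At1+ and At3+ lay below it (exact two-sided permutation p against Col-0 = 0.1, and 0.2 for At3+, the smallest possible).

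LHCB1.3 (AT1G29930), which had the highest normalized count per kilobase of the 49, had 304962, 299451 and 361616 in At1++, 300532, 269228 and 325101 in At1+, 342229, 504166 and 348594 in At2++, 485513, 340109 and 387986 in At2+, 275128, 346544 and 359869 in At3++ and 260571 and 270974 in At3+, against 268764, 257218 and 232614 in Col-0. It rose in At2++ and At2+ by log2 fold changes of 0.63 and 0.66 (limma adjusted p = 0.00893 and 0.00781), with replicate 2 of At2++ and replicate 1 of At2+ the highest of all libraries. Without that replicate of At2++ the change was 0.45 (limma adjusted p = 0.0678). LHCB1.4, on chromosome 2, had log2 fold changes of -0.32 to 0.28 and passed the test in no line. Summed over LHCB1.1 to LHCB1.4, the normalized count was 471410 ± 53282 in At1++ and 465668 ± 46394 in At1+, 590668 ± 132983 in At2++ and 594733 ± 113291 in At2+, and 488518 ± 68140.4 in At3++ and 406512 ± 9779 in At3+, against 408224 ± 28899.9 in Col-0 (SD). The At1++, At2++ and At2+ libraries lay above Col-0 in this sum (exact two-sided permutation p = 0.1), and those of At1+, At3++ and At3+ overlapped it.

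**Figure D3:**
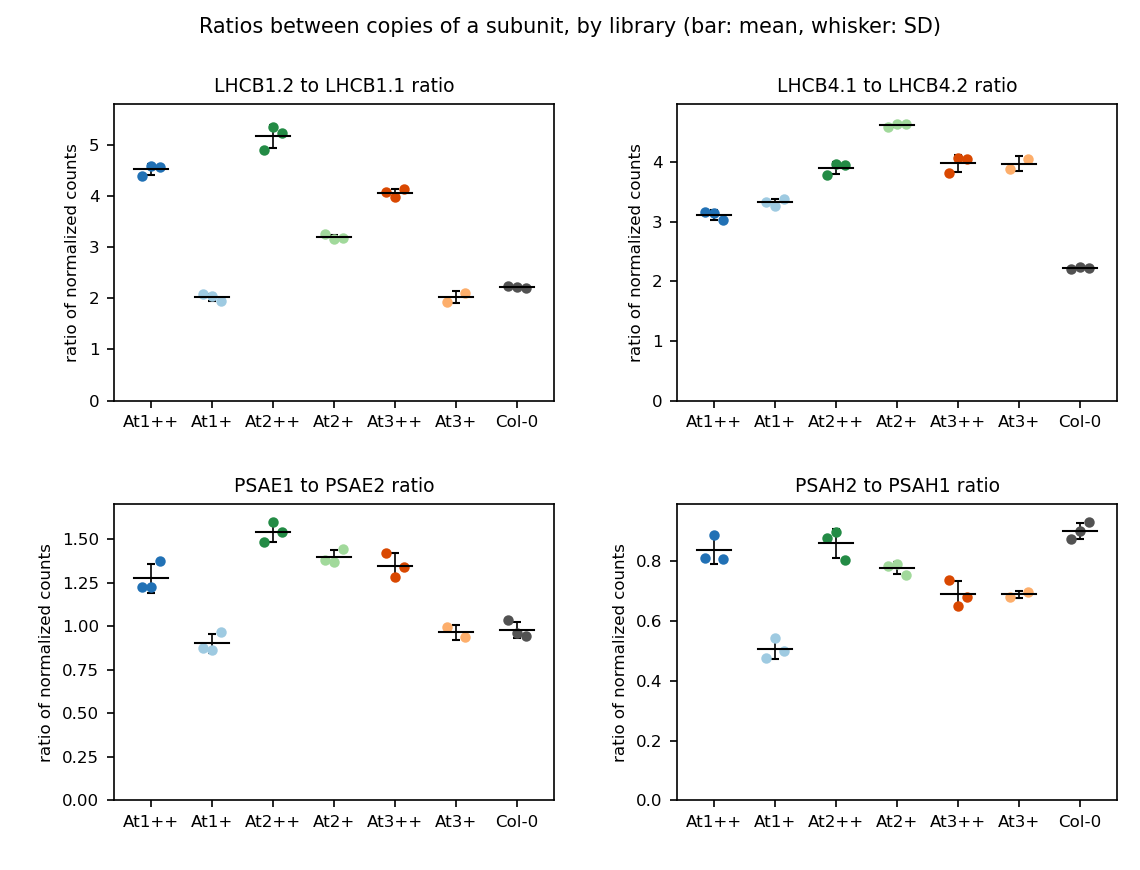
Points are libraries, bars are group means and whiskers are SD of the ratio of the normalized counts of 2 genes for the same protein. LHCB1.2 to LHCB1.1 is highest in At2++ at 5.17 ± 0.229 and close to Col-0 in At1+ and At3+, and LHCB4.1 to LHCB4.2 is above Col-0 in all 6 lines.

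The minor antenna proteins LHCB4, LHCB5 and LHCB6 stand as monomers between the LHCII trimers and the PSII core. Of their 5 genes, 4 rose and 0 fell in At1++, 0 rose and 1 fell in At1+, 4 rose and 0 fell in At2++, 3 rose and 1 fell in At2+, 3 rose and 1 fell in At3++ and 0 rose and 1 fell in At3+. LHCB4.2 (AT3G08940) had 15035, 14353 and 18364 in At1++, 13718, 11951 and 14053 in At1+, 13833, 15968 and 13149 in At2++, 13289.7, 10752 and 11742 in At2+, 10674, 12241 and 12076 in At3++ and 10657 and 10353 in At3+, against 16873, 16919 and 15602 in Col-0. It fell in At1+, At2+, At3++ and At3+ by log2 fold changes of -0.65 to -0.32 (limma adjusted p 0.000251 to 0.0171). Its adjusted p in At1+ was 0.1 without replicate 2 of At1+, 0.0545 without replicate 1 of Col-0 and 0.058 without replicate 2 of Col-0, and in At2++ it passed at 0.0213 without replicate 2, by -0.29. LHCB4.1, its copy with 81.1% coding identity, rose in At1++, At2++, At2+ and At3++ by 0.34 to 0.61. The LHCB4.1 to LHCB4.2 ratio was 3.11 ± 0.0771 in At1++ and 3.33 ± 0.0563 in At1+, 3.9 ± 0.104 in At2++ and 4.62 ± 0.0316 in At2+, and 3.98 ± 0.142 in At3++ and 3.97 ± 0.119 in At3+, against 2.22 ± 0.0113 in Col-0 (SD), and no line overlapped Col-0.

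LHCB4.3 (AT2G40100), the rarest of the 49 transcripts, had 146, 132 and 151 in At1++, 50.6, 52.9 and 58.1 in At1+, 169, 244 and 156 in At2++, 91.0, 81.1 and 81.9 in At2+, 84.6, 117 and 87.5 in At3++ and 62.3 and 71.9 in At3+, against 73.2, 70.1 and 60.6 in Col-0. The At1++ and At2++ libraries were above all others. It rose by 1.06 in At1++, 1.45 in At2++ and 0.49 in At3++ (limma adjusted p = 3.79e-06, 1.91e-08 and 0.0135). The At3++ call was lost without replicate 2 of At3++ (0.34, limma adjusted p = 0.112) or replicate 3 of Col-0 (0.41, adjusted p = 0.0711). LHCB5 (AT4G10340) had 58085, 57788 and 72594 in At1++, 52087, 46209 and 54232 in At1+, 75574, 93772 and 77211 in At2++, 88377, 69176 and 75863 in At2+, 67956, 71762 and 70862 in At3++ and 51050.4 and 46501 in At3+, against 50799, 51074 and 47574 in Col-0. It rose in At1++, At2++, At2+ and At3++ by 0.33 to 0.72 (limma adjusted p 2.15e-05 to 0.0339), and the At1++ call, at 0.33, was lost without replicate 3 of At1++ (0.22, adjusted p = 0.185) and without any 1 of the Col-0 libraries (adjusted p 0.0559 to 0.113). LHCB6 rose in At1++, At2++ and At2+ by 0.32 to 0.88.

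In the PSI antenna, LHCA6 rose most. LHCA6 (AT1G19150), which with LHCA5 holds the NDH complex to PSI, had 1263, 1295 and 1509 in At1++, 626, 491 and 617 in At1+, 2205, 2675 and 2153 in At2++, 1819.6, 1700 and 1822 in At2+, 1649, 1735 and 1678 in At3++ and 939.6 and 985 in At3+, against 578, 600.1 and 558 in Col-0. Only At1+ overlapped Col-0. LHCA6 rose by 1.22 in At1++, 2.01 in At2++ and 1.62 in At2+, and 1.54 in At3++ and 0.73 in At3+ on the log2 scale (standard error up to 0.098, limma adjusted p 1.68e-15 to 1.26e-05), and its fold change in At2++ was the largest rise of any of the 49 in any line. LHCA5 rose in the same 5 lines by 0.39 to 0.83. LHCA1 to LHCA4 form the antenna belt of PSI. LHCA2 rose in At1++, At2++, At2+ and At3++ by 0.43 to 0.68, LHCA3 rose in At2++ and At2+ by 0.35 and 0.43, and LHCA1 passed the test in no line (-0.18 to 0.19). LHCA4 (AT3G47470) had 42938, 39270.2 and 50126 in At1++, 58588, 52960.5 and 61553 in At1+, 44543, 53953 and 45609.8 in At2++, 59453, 43452 and 49022 in At2+, 44584, 50092 and 50161 in At3++ and 48372 and 45175 in At3+, against 60279, 58203 and 54948 in Col-0. It fell in At1++ by 0.40 (limma adjusted p = 0.0104), and this call was lost without replicate 2 of At1++ (-0.32, adjusted p = 0.065). A fall in At2++ passed without its replicate 2 (-0.36, adjusted p = 0.0208), and one in At2+ without its replicate 1 (-0.32, adjusted p = 0.0349).

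**Figure D4:**
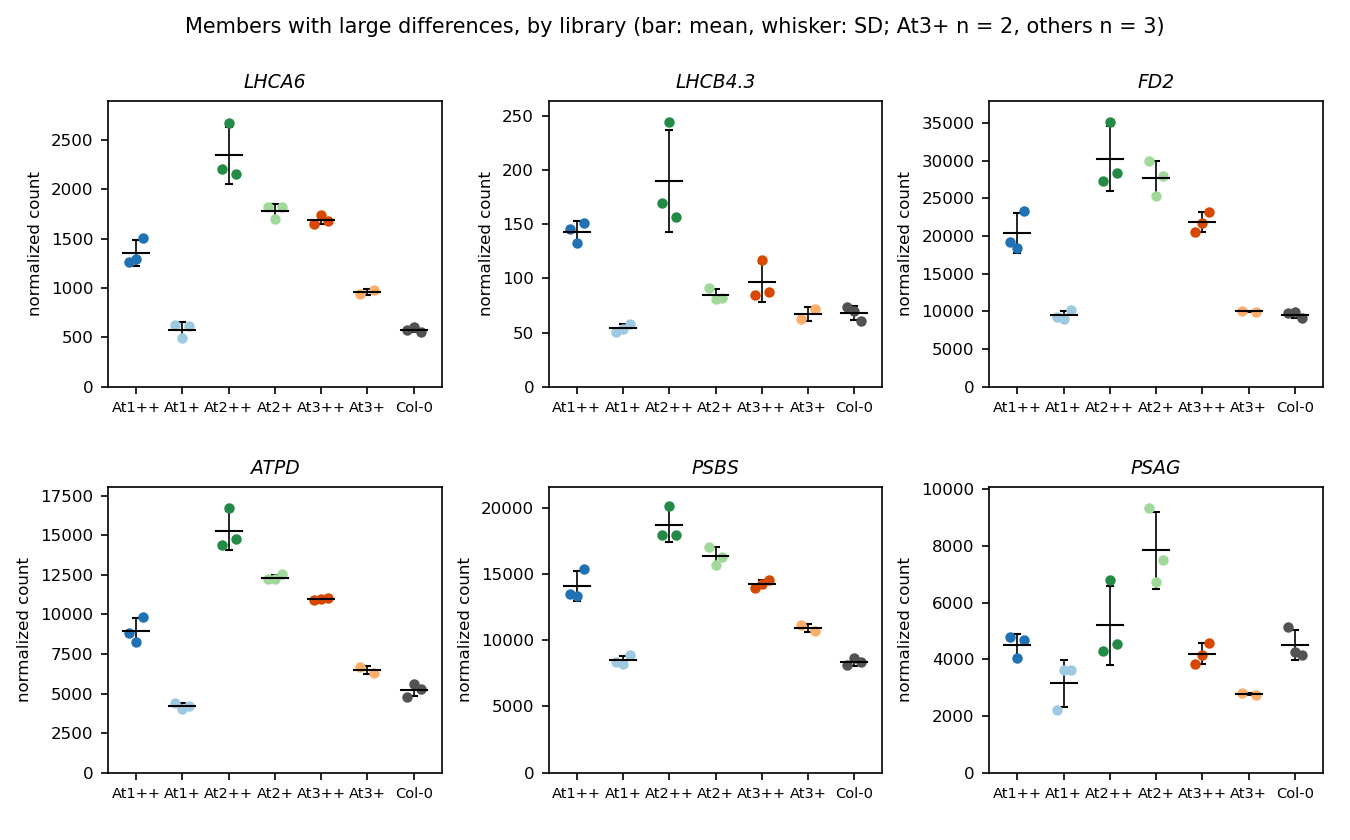
Points are libraries, bars are group means and whiskers are SD of the normalized count for 6 genes. LHCA6, FD2, ATPD and PSBS are highest in At2++ and near Col-0 in At1+, and PSAG is highest in At2+.

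Of the 12 PSI core genes, 10 rose and 0 fell in At1++, 2 rose and 3 fell in At1+, 11 rose and 0 fell in At2++, 11 rose and 0 fell in At2+, 8 rose and 0 fell in At3++ and 1 rose and 2 fell in At3+. PSAD and PSAE form the stromal side on which ferredoxin docks. PSAD2 (AT1G03130) had 5237, 5411 and 6341 in At1++, 2661, 2884 and 2979 in At1+, 6285, 7938 and 6317 in At2++, 5660.1, 6346 and 6509 in At2+, 5257, 5247 and 5412 in At3++ and 2903 and 2666 in At3+, against 3717, 3791 and 3518 in Col-0. The At1+ and At3+ libraries were all below Col-0 and the other lines all above it, with log2 fold changes of -0.37 and -0.40 in At1+ and At3+ and 0.53 to 0.89 in the 4 others (limma adjusted p 2.99e-09 to 0.0065). The fall in At3+ was lost without its replicate 3 (-0.34, adjusted p = 0.128). PSAD1, the second copy, rose in the same 4 lines by 0.44 to 0.95. PSAF, the plastocyanin docking subunit, rose in these 4 and in At1+ by 0.35 to 0.86. PSAK, PSAN, PSAO and PSAE1 rose in the same 4 lines, by 0.26 to 0.89, and PSAL, which with PSAH and PSAO forms the docking site for LHCII, rose in At1++, At2++ and At2+ by 0.30 to 0.46.

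Copies of one PSI subunit could differ. PSAE1 and PSAE2 encode the same subunit, and PSAE2 passed the test in At2++ only (0.24, limma adjusted p = 0.0456). The ratio of PSAE1 to PSAE2 was 1.28 ± 0.0844 in At1++ and 0.904 ± 0.0547 in At1+, 1.54 ± 0.0575 in At2++ and 1.4 ± 0.0376 in At2+, and 1.35 ± 0.0715 in At3++ and 0.967 ± 0.0428 in At3+, against 0.981 ± 0.0473 in Col-0 (SD), and At1++, At2++, At2+ and At3++ did not overlap Col-0. PSAH1 rose in all 6 lines by 0.28 to 0.64, narrowly in At3+ (limma adjusted p = 0.0362). PSAH2 fell in At1+ by 0.51, rose in At1++, At2++ and At2+ by 0.30 to 0.57, and did not pass in At3++ (0.079) or At3+ (-0.10). The PSAH2 to PSAH1 ratio was 0.506 ± 0.033 in At1+, the lowest of all groups, against 0.901 ± 0.027 in Col-0 (SD). In the other lines, too, the fold change of PSAH2 was below that of PSAH1.

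PSAG (AT1G55670), which sits where the LHCI belt meets the core, had 4783, 4039.5 and 4672 in At1++, 2207, 3641 and 3629 in At1+, 4278, 6809.9 and 4541 in At2++, 9340.4, 6714 and 7489.9 in At2+, 3844, 4159 and 4590.1 in At3++ and 2812 and 2755 in At3+, against 5129, 4246 and 4162 in Col-0. It rose in At2+ by 0.79 (limma adjusted p = 0.000265), fell in At1+ by 0.55 (0.0122) and in At3+ by 0.69 (0.0138), and was -0.002 in At1++, 0.18 in At2++ and -0.10 in At3++. Both falls rested on single libraries. Without replicate 1 of At1+ the change there was -0.31 (adjusted p = 0.146) and without replicate 1 of Col-0 it was -0.45 (0.0701). In At3+ the adjusted p was 0.102 and 0.114 without either of its libraries and 0.0713 without replicate 1 of Col-0.

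Of the 10 PSII core genes, 8 rose and 0 fell in At1++, 0 rose and 0 fell in At1+, 10 rose and 0 fell in At2++, 10 rose and 0 fell in At2+, 8 rose and 0 fell in At3++ and 3 rose and 0 fell in At3+. PSBS (AT1G44575), the sensor of lumen acidity that switches on the harmless loss of excess light energy as heat, had 13480.1, 13326 and 15356 in At1++, 8375, 8217 and 8855 in At1+, 17903, 20127 and 17965 in At2++, 17019, 15644 and 16266 in At2+, 13949, 14269.8 and 14504 in At3++ and 11147 and 10715 in At3+, against 8103, 8658 and 8334 in Col-0. At1+ alone overlapped Col-0. PSBS rose by 0.75 in At1++, 1.16 in At2++ and 0.96 in At2+, and 0.77 in At3++ and 0.39 in At3+ (limma adjusted p 1.38e-12 to 0.0023), and the At3+ call was just lost without its replicate 1 (adjusted p = 0.0539).

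PSBO, PSBP and PSBQ form the lumenal cap of the oxygen-evolving complex. PSBQ1 (AT4G21280) had 19008, 19054 and 21698 in At1++, 12738, 11331 and 12677 in At1+, 22485, 27384 and 22058 in At2++, 20288, 19365 and 19855 in At2+, 17261, 18039.7 and 18107 in At3++ and 14746 and 14728 in At3+, against 11538, 11848 and 11620.4 in Col-0. It rose by 0.77 in At1++, 1.03 in At2++ and 0.77 in At2+, and 0.61 in At3++ and 0.34 in At3+ (limma adjusted p 1.44e-10 to 0.0194). The At3+ call was lost without either At3+ library (adjusted p = 0.138 and 0.126) and without replicate 1 or 3 of Col-0 (0.058 and 0.0595). PSBO1, PSBO2, PSBP1 and PSBQ2 rose in At1++, At2++, At2+ and At3++ by 0.40 to 0.90, so that all 5 genes of the cap rose together in these lines.

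Of the small PSII subunits, PSBX (AT2G06520) had 20139, 20998 and 25967 in At1++, 14514, 12558 and 15403 in At1+, 29499, 38107 and 29008 in At2++, 32846, 26623 and 28619 in At2+, 23665, 24194 and 24531 in At3++ and 16106 and 15197 in At3+, against 15977, 15744 and 15025 in Col-0. It rose in At1++, At2++, At2+ and At3++ by 0.51 to 1.04 (limma adjusted p 1.77e-08 to 0.000494), and At1+ and At3+ overlapped Col-0. PSBY rose in the same lines by 0.45 to 0.92. PSBW (AT2G30570), which had the smallest median change of the PSII core genes, had 21090.3, 20787 and 24279 in At1++, 17371, 17820 and 18869 in At1+, 25332, 32708 and 25761 in At2++, 30800.5, 25369 and 27086 in At2+, 19938, 20136 and 21355 in At3++ and 18796 and 17692 in At3+, against 21253, 20292 and 21228 in Col-0. It rose in At2++ and At2+ by 0.41 and 0.40, as did PSBR, by 0.35 and 0.37.

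The 8 genes of electron transport and ATP synthase rose in nearly every case in At1++, At2++, At2+ and At3++. Of them, 8 rose and 0 fell in At1++, 1 rose and 1 fell in At1+, 8 rose and 0 fell in At2++, 8 rose and 0 fell in At2+, 7 rose and 0 fell in At3++ and 4 rose and 0 fell in At3+, and their median log2 fold change was 1.06 in At2++, beside 0.70 for the 49. FD2 (AT1G60950), the main leaf ferredoxin, had 19230, 18463 and 23388 in At1++, 9221, 9052 and 10173 in At1+, 27337, 35174 and 28311 in At2++, 29901, 25300.4 and 27917 in At2+, 20532, 21773 and 23172 in At3++ and 10065 and 9924 in At3+, against 9789, 9914 and 9058 in Col-0. At1+ overlapped Col-0, At3+ lay just above it, and the libraries of the 4 other lines were all above those of At3+. FD2 rose by 1.08 in At1++, 1.65 in At2++, 1.53 in At2+ and 1.19 in At3++ (standard error up to 0.099, limma adjusted p 6.66e-13 to 2.64e-09).

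ATPD (AT4G09650), the delta subunit that joins the catalytic head of ATP synthase to its stalk, had 8801, 8265 and 9849 in At1++, 4415, 4026 and 4209 in At1+, 14386, 16729 and 14779.6 in At2++, 12222, 12237 and 12523 in At2+, 10884, 10999 and 11009 in At3++ and 6694 and 6313 in At3+, against 4804, 5596 and 5317 in Col-0. At1+ lay below every Col-0 library and the 5 other lines lay above all of them. The log2 fold change was 0.77 in At1++ and -0.31 in At1+, 1.55 in At2++ and 1.24 in At2+, and 1.07 in At3++ and 0.31 in At3+ (limma adjusted p 1.15e-14 to 0.0162). The At3+ call was lost without either of its libraries (adjusted p = 0.201 and 0.0622) or replicate 1 of Col-0 (0.0947). ATPC1 (AT4G04640), the rotating gamma subunit, had 15096, 14109 and 15959.6 in At1++, 10614, 9681 and 10821 in At1+, 20933, 22409 and 22692 in At2++, 20307, 20612 and 21807 in At2+, 19003, 17876 and 18824 in At3++ and 13591 and 12627 in At3+, against 9939, 11654 and 10975 in Col-0. It rose in At1++, At2++, At2+ and At3++ by 0.47 to 1.02, and in At3+ by 0.27 (limma adjusted p = 0.0441), a call lost when either At3+ library or replicate 1 or 3 of Col-0 was left out (adjusted p 0.0939 to 0.361).

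Plastocyanin, the copper protein that carries electrons to PSI, is encoded by PETE1 and PETE2. PETE1 (AT1G76100) had 3197, 3249 and 3772 in At1++, 1854, 1674 and 2013 in At1+, 4036, 5105 and 4029 in At2++, 3862, 3222 and 3605 in At2+, 3556, 3704 and 3823 in At3++ and 2287 and 2313 in At3+, against 1935, 2004 and 1893 in Col-0. PETE2 (AT1G20340), the more abundant copy, had 40765, 40251 and 50936 in At1++, 29895, 27639 and 30572 in At1+, 54634, 68809.8 and 56943 in At2++, 62099.5, 51325 and 54965 in At2+, 49381, 49075 and 50150.4 in At3++ and 37576 and 31940.1 in At3+, against 27268, 28566 and 27735 in Col-0. Both rose in At1++, At2++, At2+ and At3++, PETE1 by 0.81 to 1.17 and PETE2 by 0.65 to 1.1 (limma adjusted p 4.18e-11 to 3.58e-05), and neither passed in At1+ or At3+. PETC, the Rieske iron-sulphur protein of the cytochrome b6f complex, rose in all 6 lines by 0.31 to 0.80, narrowly in At3+ (limma adjusted p = 0.0387).

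Ferredoxin-NADP reductase, the last enzyme of the chain, moved less. FNR2 (AT1G20020) had 17354, 16882 and 17586 in At1++, 13373, 12817 and 12393 in At1+, 19048, 21124 and 19349.7 in At2++, 15011, 17040.4 and 17239 in At2+, 16920.4, 15356 and 15907 in At3++ and 16713 and 15735 in At3+, against 13624, 14439.8 and 14901 in Col-0. It rose in At1++, At2++ and At2+ by 0.27, 0.47 and 0.20 (limma adjusted p = 0.00535, 1.04e-05 and 0.0356). The At2+ value was -0.015 when libraries were scaled to their nuclear total, and its call was lost without replicate 2 or 3 of At2+ or replicate 1 or 2 of Col-0 (adjusted p 0.063 to 0.144). FNR1 rose in 5 lines, At1+ excepted, by 0.36 to 0.75.

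Whether the genes differed between the 2 lines of an isoform was tested directly. Between the AtIPCS1 lines, 32 of the 49 genes rose and 4 fell in At1++ against At1+ (median 0.41), where 24.7% of all genes rose and 24.2% fell. For AtIPCS2, 13 of the 49 genes rose and 2 fell in the libraries labelled At2++ against those labelled At2+ (median 0.14), where 9.93% of all genes rose and 10.5% fell. For AtIPCS3, 23 of the 49 genes rose and 1 fell in the libraries labelled At3++ against those labelled At3+ (median 0.29), where 13.0% of all genes rose and 9.0% fell. The AtIPCS2 count of rises was 7 without replicate 2 of At2+ and 6 without replicate 2 of At2++, its count of falls 1 without replicate 1 of At2++, the AtIPCS3 count of rises 13 without replicate 3 of At3+, its count of falls 0 without replicate 1 of At3+ or of At3++, and the AtIPCS1 count of falls 2 without replicate 2 of At1++. These directions follow the labels, which the introduced transcript contradicts for AtIPCS2. For AtIPCS3 its mean was also against the labels, but that difference did not pass the test (limma adjusted p = 0.0987). Ordered by the mean of the introduced transcript, 2 rose and 13 fell for AtIPCS2, and 1 rose and 23 fell for AtIPCS3, in the line with more of it. LHCB1.1 was lower in the line labelled ++ than in the line labelled + of all 3 isoforms, with log2 differences of -0.56, -0.54 and -0.56 for AtIPCS1, AtIPCS2 and AtIPCS3, while LHCB2.3 rose by 1.12, 0.53 and 1.0 (limma adjusted p of these 6 values up to 0.00797). Ordered by transcript, the values were -0.56, 0.54 and 0.56 for LHCB1.1 and 1.12, -0.53 and -1.0 for LHCB2.3, so that the common direction rests on the labels. By label, LHCA6, ATPD and LHCB4.3 also rose in all 3 pairs (by transcript, all 3 would fall in AtIPCS2 and AtIPCS3), LHCA6 by 0.39 to 1.23, ATPD by 0.31 to 1.09 and LHCB4.3 by 0.50 to 1.39, although the LHCB4.3 call for AtIPCS3 (adjusted p = 0.0349) was lost without either At3+ library or replicate 2 of At3++ (adjusted p 0.0798 to 0.24).

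FD2 and PSAD2 differed between ++ and + in 2 isoforms and not in the other. FD2 rose by 1.1 in At1++ against At1+ and by 1.12 in the libraries labelled At3++ against At3+, and was 0.12 between those labelled At2++ and At2+ (limma adjusted p = 1.31e-09, 3.17e-08 and 0.419). PSAD2 gave 0.99, 0.93 and 0.14 for AtIPCS1, AtIPCS3 and AtIPCS2. The difference between these differences was itself tested, and for FD2 it was 0.97 between AtIPCS1 and AtIPCS2 and 1.0 between AtIPCS3 and AtIPCS2 (limma adjusted p = 9.95e-06 and 2.05e-05), while for PSAD2 it was 0.85 and 0.79 (7.77e-06 and 6.21e-05). Between AtIPCS1 and AtIPCS3 it was -0.028 for FD2 and 0.06 for PSAD2, with standard errors of 0.15 and 0.13. With AtIPCS3 ordered by transcript these differences were 2.22 and 1.92 with the same standard errors, with AtIPCS2 so ordered those from AtIPCS1 were 1.22 and 1.13, and with both so ordered those of AtIPCS3 from AtIPCS2 changed sign. PSAG fell in the libraries labelled At2++ against At2+ by 0.61 (adjusted p = 0.00816) and rose by 0.54 and 0.59 within AtIPCS1 and AtIPCS3. The PSAG fall was lost without replicate 1 of At2++ (-0.48, adjusted p = 0.06), the AtIPCS1 rise without replicate 1 of At1+ (0.30, 0.0977), and the AtIPCS3 rise without replicate 3 of At3++ or either At3+ library (adjusted p 0.0747 to 0.128).

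Between isoforms, the mean of both AtIPCS2 lines was above those of the others. Against AtIPCS1, 42 of the 49 genes rose in the AtIPCS2 lines and 0 fell (median 0.47), where 26.0% of all genes rose and 25.8% fell. Against AtIPCS3, 41 rose and 0 fell (median 0.39), beside 18.2% and 17.2% of all genes. AtIPCS1 against AtIPCS3 gave 2 that rose (1 without replicate 1 or 3 of At1+, 3 of At1++, 1 or 3 of At3+, or any 1 of At3++) and 7 that fell, beside 10.4% and 13.0%. The largest differences of AtIPCS2 from AtIPCS1 were in LHCA6 (1.21), ATPD (1.16) and FD2 (1.06), and from AtIPCS3 in FD2 (0.97), PSAG (0.88) and LHCB2.3 (0.83). LHCB2.2 was -0.019 and 0.15 in these comparisons, with standard errors of 0.066 and 0.07. The counts of genes that fell were 0 here, and at nuclear scaling AtIPCS2 against AtIPCS1 gave 4. DESeq2 gave 1 and edgeR 0 for that comparison, and DESeq2 0 and edgeR 0 against AtIPCS3. It was 1 without replicate 2 of At1+ or of At1++ and 2 without replicate 1 of At2+ or replicate 2 of At2++. At an unadjusted p under 0.05, 1 gene was lower in AtIPCS2 than in AtIPCS1 and 0 lower than in AtIPCS3.

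**Figure D5:**
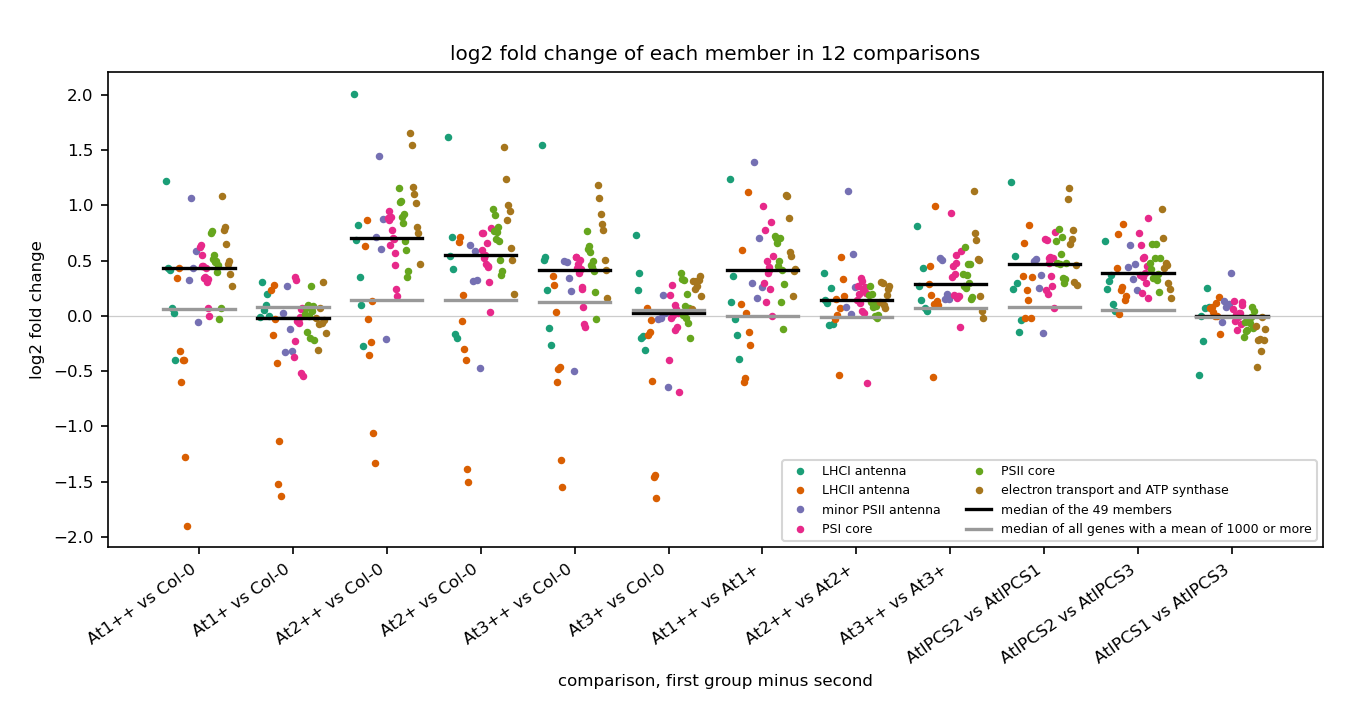
Each point is a light-reaction gene, coloured by class, and its height is the log2 fold change of the first group over the second in that comparison. Black bars are the medians of the 49 genes and grey bars those of all genes that averaged at least 1000 normalized counts, and the orange points far below 0 in the 6 comparisons with Col-0 are LHCB2 genes.

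Other nuclear genes of the same machinery were counted in the same way. Beside the counts here and in the lists below, 19.8% of all genes rose and 19.0% fell in At1++, and 14.4% and 13.2% in At1+. These shares were 25.8% and 26.2% in At2++, 22.6% and 21.5% in At2+, 20.4% and 18.1% in At3++, and 4.94% and 4.37% in At3+. Of 13 further light-reaction subunits and assembly factors, 11 rose and 0 fell in At1++, 2 rose and 2 fell in At1+, 13 rose and 0 fell in At2++, 12 rose and 0 fell in At2+, 11 rose and 0 fell in At3++ and 5 rose and 0 fell in At3+. PSB28, a PSII assembly factor, rose by 1.57 in At2++, and FD1, the minor leaf ferredoxin, by 1.63. Of 16 nuclear subunits of the NDH complex, the partner of LHCA5 and LHCA6, 14 rose and 1 fell in At1++, 2 rose and 5 fell in At1+, 16 rose and 0 fell in At2++, 15 rose and 0 fell in At2+, 15 rose and 0 fell in At3++ and 11 rose and 0 fell in At3+. The largest of these rises was in PNSL3, by 0.88 in At1++, 1.83 in At2++, 1.5 in At2+ and 1.26 in At3++, with a fall of 0.62 in At1+. Of 9 antenna relatives with roles in photoprotection, 5 rose and 0 fell in At1++, 0 rose and 3 fell in At1+, 7 rose and 0 fell in At2++, 8 rose and 0 fell in At2+, 6 rose and 0 fell in At3++ and 1 rose and 1 fell in At3+, and ELIP1, which is induced by light stress and was at 21.3 normalized counts or fewer on average, rose by 1.2, 1.37, 1.13 and 1.12 in At1++, At2++, At2+ and At3++.

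The kinases of thylakoid proteins changed in opposite directions. STN7, the LHCII kinase, fell in all 6 lines by log2 fold changes of -0.96 to -0.33, and STN8, the kinase of PSII core proteins, rose in all 6 by 0.41 to 0.82, and both were chosen after their values were seen. Of 12 regulators of light-harvesting genes, 1 rose and 6 fell in At1++, 1 rose and 8 fell in At1+, 1 rose and 9 fell in At2++, 1 rose and 9 fell in At2+, 0 rose and 7 fell in At3++ and 0 rose and 4 fell in At3+. HYH, a relative of the light-signalling factor HY5, fell in all 6 lines by -1.91 to -1.56, PIF4, a phytochrome-interacting factor, fell in all 6 by -2.28 to -0.30, and PIF5 fell in 5 by -1.60 to -0.46. Of 10 genes of the circadian clock, which times light-harvesting transcripts within the day, 0 rose and 10 fell in At1++, 1 rose and 3 fell in At1+, 0 rose and 9 fell in At2++, 0 rose and 10 fell in At2+, 0 rose and 10 fell in At3++ and 0 rose and 5 fell in At3+. Their summed normalized count was 6821 ± 226 in At1++ and 11051 ± 245 in At1+, 5615 ± 256 in At2++ and 6096 ± 291 in At2+, and 6659 ± 159 in At3++ and 8302 ± 22.2 in At3+, against 11478 ± 88.6 in Col-0 (SD). The 4 lines in which most light-reaction genes rose thus had the lowest clock sums, and the part of the clock genes in the result was not tested.

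Chloroplast-encoded partners were read in the same libraries, which were made from poly-A RNA, and chloroplast messages mostly lack a stable poly-A tail. Of 32 chloroplast genes of the photosystems, cytochrome b6f complex and ATP synthase, 24 rose and 0 fell in At1++, 22 rose and 0 fell in At1+, 25 rose and 0 fell in At2++, 31 rose and 0 fell in At2+, 24 rose and 0 fell in At3++ and 1 rose and 0 fell in At3+. Their summed normalized count was 14115 ± 3624 in At1++ and 12598 ± 3402 in At1+, 20777 ± 1578 in At2++ and 49213 ± 24021 in At2+, and 15811 ± 1129.7 in At3++ and 5661 ± 1541 in At3+, against 4264 ± 2269 in Col-0 (SD), with 1 library of At2+ at 76777. In At1+ these chloroplast transcripts rose while most nuclear members did not pass the test, and the part of either in the other was not tested.

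Whole seedlings hold several organs, and a change in the share of cells of a type and a change in RNA per cell cannot be told apart in them. Summed over 17 root markers, the normalized count was 1799 to 1991 in At1++, 2135 to 2551 in At1+, 2779 to 2923 in At2++, 2753 to 3124 in At2+, 2411 to 2705 in At3++ and 2011 to 2180.1 in At3+, against 2028 to 2216 in Col-0. Of these 17, 6 rose and 3 fell in At1++, 4 rose and 0 fell in At1+, 5 rose and 1 fell in At2++, 7 rose and 1 fell in At2+, 5 rose and 1 fell in At3++ and 0 rose and 0 fell in At3+. The root markers did not move together, with log2 fold changes in At2++ of 5.24 for NRT2.1 and -2.09 for CASP5. Over 5 stomatal lineage markers the sum was 751 to 787 in At1++, 599 to 656 in At1+, 629 to 662 in At2++, 595 to 622 in At2+, 566 to 627 in At3++ and 697 to 710.4 in At3+, against 588 to 688 in Col-0, and 3 rose and 0 fell in At1++, 0 rose and 1 fell in At1+, 2 rose and 1 fell in At2++, 1 rose and 1 fell in At2+, 2 rose and 1 fell in At3++ and 0 rose and 0 fell in At3+. The 8 seed storage markers, among them the cruciferin and 2S albumin genes, rose in every line. Their sum was 29829 to 33928 in At1++, 1737 to 2942 in At1+, 2673 to 2898 in At2++, 5948 to 7560.4 in At2+, 12618 to 15738 in At3++ and 539.7 to 981 in At3+, against 1.87 to 6.15 in Col-0. In the Col-0 libraries 1 read was worth 0.878 to 0.935, so that these sums over 8 genes were only a few reads, near the floor. All genes of these 3 marker lists had reads, none was at 0 in every library, and their part in the results above was not tested.

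The 250 bases before the start of each gene were searched on both strands for 4 short motifs, as a description. The G-box CACGTG was in 9 of the 49 windows (18.4%) and 6.49% of 27443 protein-coding genes. The I-box GATAAG was in 12 of the 49 windows (24.5%) and 12.3% of 27443 protein-coding genes. The CCA1-binding letters AAAAATCT were in 5 of the 49 windows (10.2%) and 6.69% of 27443 protein-coding genes, and the evening element AAAATATCT, the clock motif of evening genes, in 2 of the 49 windows (4.08%) and 2.36% of 27443 protein-coding genes. No motif contains another. Among the 28 genes that rose in At1++, At2++, At2+ and At3++, the G-box was in 4 and the I-box in 7, and among the 21 others they were in 5 and 5. LHCB2.1 had an I-box that LHCB2.2 lacked in this window, LHCB2.3 and ATPD had a G-box, and LHCA6 and FD2 had none of the 4. The LHCA6 and ATPD windows overlap a neighbouring gene.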

How the data were processed

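The deposited table held 25263 genes in 21 libraries of seedling poly-A RNA, sequenced as single-end reads. After trimming (Trimmomatic) and alignment by STAR to an Araport release, the authors counted reads per gene with HTSeq and divided the counts by DESeq2 size factors. Versions are not given in the sources used here. The deposited signal is therefore a normalized count, and whole reads could be recovered for 100.0% of values within 0.01 of a whole number. The genes whose mean was 1 or more were tested on log2(value + 1) with limma 3.58.1 (trend, R 4.3.3), with 7 groups in 1 model and Benjamini-Hochberg adjustment over all genes. edgeR 4.0.16 (quasi-likelihood) and DESeq2 1.42.0 on recovered reads, other filters, pseudocounts and scalings, a replicate block and leaving out each library were alternatives. The limma step was tested on simulated data. Sums and ratios were compared by exact two-sided permutation. Between 12733113 and 17210244 reads lay behind each library, and 3 reads were taken as the floor. Values per library are given for the genes with the largest changes and the highest and lowest median of each class. Other genes of the pathway came from fixed lists, and the interaction terms, the comparison with abundant genes the ratios and the order by transcript were added after seeing the data. The genes and lists were chosen with earlier results of these data known. Promoters were read from TAIR10.1 (RefSeq) with Biopython 1.88, by locus identifier.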

Additional observations from a re-analysis of the deposited data

Results flagged for a closer look

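The following results differed between the lines of 2 isoforms by a test of the difference itself. The p-values measure the spread between libraries and not between independent lines, of which each isoform had 2. In the mean of both AtIPCS2 lines against both AtIPCS1 lines, LHCA6 differed by a log2 value of 1.21 (limma adjusted p = 2.72e-14), FD2 by 1.06 (3.75e-12) and ATPD by 1.16 (2.69e-15). The 2 AtIPCS1 lines differed from each other about as much, by 1.23, 1.1 and 1.09 for At1++ against At1+. For At2++ against At2+ the values were 0.39, 0.12 and 0.31. The difference of PSAG between ++ and + was 1.15 larger in AtIPCS1 than in AtIPCS2 (limma adjusted p = 0.000437) and 1.2 larger in AtIPCS3 than in AtIPCS2 (0.000736). That of FD2 was 1.0 larger in AtIPCS3 than in AtIPCS2 (limma adjusted p = 2.05e-05). The last 3 follow the labels, which the introduced transcript contradicts for AtIPCS2. For AtIPCS3 its mean was also against the labels, but that difference did not pass the test (limma adjusted p = 0.0987). With both ordered by transcript, a choice made after seeing the data, the PSAG values were -0.066 (standard error 0.23) and -1.2, and that of FD2 was -1.0, so that the PSAG difference between AtIPCS1 and AtIPCS2 rests on the labels.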

How the results depend on the processing

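Of the results for named genes, 3015 kept direction and side of the threshold over the alternatives that kept every library, 71 no longer passed, 63 newly passed and 1 reversed (FNR2 in At2+ at -0.015 under nuclear scaling, limma adjusted p = 0.867). With libraries left out, 2362 were kept, 128 no longer passed and 30 newly passed. Genes that rose in At1+ numbered 6 with edgeR, 6 with DESeq2, 5 with only the libraries compared and 1 at an adjusted p under 0.01, beside 3. Those that rose in At3+ numbered 6 with no filter on low values, 6 with the replicate block and 4 at 0.01, beside 10, and those that rose between At2++ and At2+ numbered 20 with nuclear scaling, 6 with only the libraries compared and 5 at 0.01, beside 13. Genes that rose in AtIPCS1 against AtIPCS3 numbered 1 with no filter, 1 with the replicate block and 1 at 0.01, beside 2. Nuclear scaling gave falls of 15 genes for At1+, 6 for At2++, 10 for At3++ and 4 for AtIPCS2 against AtIPCS1, where DESeq2 gave 1. It moved the summed LHCB2 log2 ratio to -1.22 in At2++, -1.52 in At2+ and -1.46 in At3++, beside -1.0, -1.31 and -1.30. The cause of these moves was not tested, and the shares of all genes that fell under nuclear scaling are not given here. On recovered reads edgeR called 5657 higher and 5944 lower and DESeq2 5367 higher and 5341 lower of all genes in At2++ against Col-0, beside 5742 higher and 5828 lower with limma. On leaving out single libraries, the counts that rose and fell were 29 to 34 and 5 to 6 for At1++ against Col-0, 2 to 5 and 7 to 9 for At1+ against Col-0, 35 to 39 and 2 to 6 for At2++ against Col-0, 36 to 37 and 4 to 6 for At2+ against Col-0, 25 to 30 and 6 to 6 for At3++ against Col-0, 2 to 8 and 4 to 7 for At3+ against Col-0, 28 to 33 and 2 to 4 for At1++ against At1+, 6 to 17 and 1 to 2 for At2++ against At2+, 13 to 23 and 0 to 1 for At3++ against At3+, 40 to 43 and 0 to 2 for AtIPCS2 against AtIPCS1, 35 to 44 and 0 to 0 for AtIPCS2 against AtIPCS3, 1 to 3 and 5 to 9 for AtIPCS1 against AtIPCS3. The summed LHCB1 log2 ratios then ranged 0.11 to 0.26 for At1++, 0.12 to 0.26 for At1+, 0.33 to 0.63 for At2++, 0.38 to 0.66 for At2+, 0.19 to 0.37 for At3++, -0.061 to 0.039 for At3+, and those of LHCB2 -1.5 to -1.31 for At1++, -1.44 to -1.30 for At1+, -1.08 to -0.93 for At2++, -1.35 to -1.25 for At2+, -1.34 to -1.24 for At3++, -1.59 to -1.48 for At3+. Deviations of same-numbered libraries correlated at -0.257 to 0.261, and 0 of 15 group pairs had every correlation over 0.1. This check left out At3+, and with 3 libraries a group it cannot show that no batch was shared. Beyond the counts above, each group is 1 line, At3+ has n = 2, and counts of near-identical LHCB1 copies depend on how reads were assigned.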

Other observations

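Per kilobase of transcript, LHCB1.3 had 205581 normalized counts in Col-0, the highest of the 49 genes, followed by LHCB1.4 with 63052 and PSBR with 55410.1. LHCB2.1 had 4737, LHCB2.2 had 3972 and LHCB2.3 had 715, all far below LHCB1.3. LHCA6 had 498 and LHCB4.3, at 51.5, was lowest.

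Of 6 genes for antenna phosphorylation and cyclic electron flow, 1 rose and 3 fell in At1++, 1 rose and 2 fell in At1+, 2 rose and 2 fell in At2++, 2 rose and 2 fell in At2+, 2 rose and 2 fell in At3++ and 2 rose and 1 fell in At3+. PGR5 and PGRL1B, both of cyclic flow around PSI, went with the falls, PGR5 by 0.41 in At1++ and 0.41 in At1+, and PGRL1B by log2 fold changes of -0.58 to -0.38 in At1++, At2++, At2+ and At3++. PGRL1A rose in At2++, At2+, At3++ and At3+ by 0.34 to 0.58. These 3 were chosen after their values were seen. The ratio of FNR1 to FNR2 was 0.839 ± 0.0372 in At2++, 0.856 ± 0.0741 in At2+ and 0.819 ± 0.0532 in At3++, against 0.689 ± 0.0308 in Col-0 (SD, n = 3 each), with no overlap. In the other lines FNR1 also stood above FNR2 in log2 fold change, at 0.38 and 0.27 in At1++, -0.033 and -0.15 in At1+, and 0.36 and 0.18 in At3+.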
